A study of Mus musculus with 6 samples.

Results

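The clustered protocadherins are cell-surface adhesion proteins whose genes lie in the alpha, beta and gamma clusters, side by side on mouse chromosome 18. They were taken from the table by gene symbol: 57 of the 16415 listed genes matched, 14 in the alpha cluster (Pcdha1 to Pcdha12, Pcdhac1 and Pcdhac2), 21 in the beta cluster (Pcdhb2 to Pcdhb22) and 22 in the gamma cluster (Pcdhga, Pcdhgb and Pcdhgc genes). Pcdhb1 was not analysed here. All 57 passed the filter on low values, and the 3 clusters are described apart.

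The tissue was mouse trigeminal ganglion, the ganglion of sensory neurons that serves the face and the meninges. Both groups have the genotype WT and differ in treatment, which the labels call NC-up (3 libraries) and SETDB2-up (3 libraries). The labels do not say what either name stands for in full, what agent was given, by which route, to which cells or for how long, nor the animals' age, nor whether the libraries came from separate animals. P-values therefore measure the spread between these libraries, which may be technical.

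Each variable exon of the alpha and gamma clusters has its own promoter and encodes the whole extracellular part, the membrane span and part of the cytoplasmic tail of 1 isoform. That exon is spliced to constant exons which all members of the cluster share and which encode the rest of the tail. Beta genes are single-exon genes without a shared tail. Each neuron is known to use a small, largely random set of alpha, beta and gamma promoters, chosen through CTCF, cohesin and DNA methylation, and the proteins bind their like on other cells, so that the branches of 1 neuron recognise each other. The C-type isoforms (Pcdhac1, Pcdhac2, Pcdhgc3, Pcdhgc4 and Pcdhgc5) stand at the ends of the alpha and gamma clusters and are used more uniformly between cells of a type. Bulk libraries hold the sum over all cells, so fewer cells of a type and less RNA per cell cannot be told apart.

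The recovered reads per library, over the listed genes, numbered 19334997 to 23501386. As a check of the labels, Setdb2 itself measured 69.9, 58.4 and 71.5 normalised reads in the NC-up libraries and 113, 97.6 and 104 in the SETDB2-up libraries, without overlap (log2 fold change 0.65 ± 0.19 SE, limma adjusted p = 0.0253; 0.49, adjusted p = 0.144, after a correction for transcript GC content). Markers of sensory neurons summed to 380506 to 400456 normalised reads in NC-up against 386675 to 401479 in SETDB2-up, and 2 of 14 fell and 1 rose. Over all genes tested 8.71% fell and 7.71% rose, and these shares apply to each marker list here. A count of 1 or 2 of 14 is near them. Of 14 markers of satellite glia and Schwann cells 4 fell and 1 rose, and their sums were 411443 to 429470 in NC-up against 364097 to 419317 in SETDB2-up. Markers of other tissues also moved with the groups. Of 14 liver markers in the table, 10 passed the filter (a value of 1 in 3 or more libraries), and all 10 rose. That count is partly set by the filter. Alb and Serpina1d had no reads in any NC-up library. They could enter the test only by reaching 1 in every SETDB2-up library, which makes a fall impossible for them. The liver sums were 61.3 to 67.8 for NC-up, against 3122, 7657 and 104 for SETDB2-up libraries 1, 2 and 3. Of 12 markers of fibroblasts and meninges 6 fell and 1 rose, and their sums were 30098 to 35941 in NC-up against 27262 to 31410 in SETDB2-up. Of 10 muscle markers 4 fell (sums of 3237 to 3324 and of 2030 to 2456), and of 7 keratinocyte markers 5 fell (338 to 762 and 299 to 320). After the GC correction 3.65% of all genes fell and 1.78% rose. Of the glial markers 0 then fell and 1 rose, and of the neuronal markers 1 fell and 0 rose. Among the fibroblast and meningeal markers 5 fell and 1 rose. In the muscle and the keratinocyte list 3 each fell and 0 rose. Liver markers that rose numbered 9, again partly set by the filter. The sums of endothelial and mural markers (5589 to 5902 and 5598 to 5944), macrophage markers (2631 to 3574 and 2358 to 2825) and erythrocyte markers (7806 to 15313 and 5249 to 15488) overlapped between the groups. No gene of the table has fewer than 33 recovered reads over the 6 libraries, so no listed marker could have 0 reads in all of them. The liver marker Apoc3, the muscle markers Tnnt3 and Tnni2 and the keratinocyte markers Krt15 and Flg are not in the table. The part of these other tissues in the protocadherin results was not tested.

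As deposited, all 22 gamma members fell in SETDB2-up, no alpha member passed the test and 1 beta member rose. The fall in the gamma cluster was small, by 0.22 to 0.49 on the log2 scale (median -0.25, against 0.00 over all genes tested), and in each of the 22 genes every SETDB2-up library lay below every NC-up library. Over all 16387 genes tested, 8.71% fell and 7.71% rose by limma at an adjusted p under 0.05, and 16.4% had groups without overlap on the lower side. With edgeR on the recovered reads the counts in the 3 clusters were the same (8.99% of all genes fell and 7.37% rose). The 22 falls cannot be taken as 22 separate measurements, since the gamma genes have nearly the same value in a library. Pcdhgb8, whose gene model ends early, was set aside. Of the other 21 gamma genes the lowest, Pcdhgc5, had a count equal to 70.5% to 99.4% of the reads of the other 20 (median 96.8%), and at least 90% in every library for 19 of those 20. The same was seen in the alpha cluster, where the lowest gene, Pcdha8, had a count equal to 50.5% to 99.5% of the reads of each of the other 13 genes (median 95.0%), and at least 90% in every library for 10 of them. Values at 1 level over genes with separate promoters are what a table shows when a read on a constant exon is entered for every gene that contains it. The sources used here do not give how such reads were counted, so this reading rests on the values alone.

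**Figure D1:**
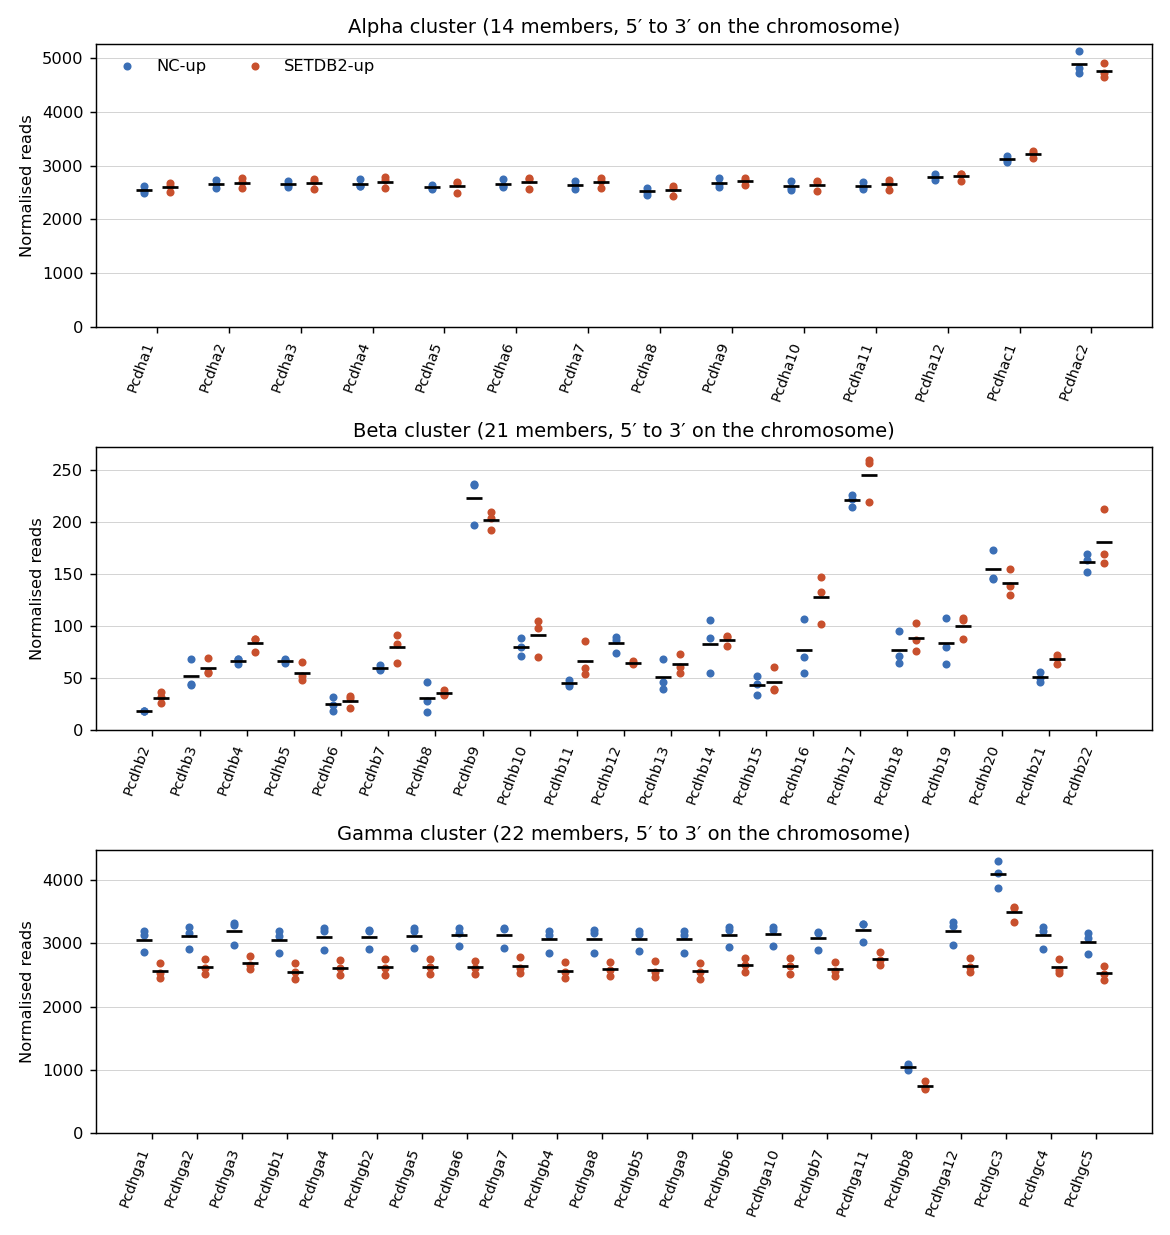
Normalised reads as deposited (linear axes from 0) for each member of the alpha, beta and gamma clusters; each point is 1 library, blue for NC-up and orange for SETDB2-up, and black bars are means of 3 libraries. The gamma members lie on 1 level per library, with Pcdhgb8 below it and Pcdhgc3 above it, and the SETDB2-up points lie below the NC-up points in all 22; alpha members except Pcdhac1 and Pcdhac2 are also on 1 level, whereas beta members differ from each other.

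The shared reads were therefore counted once, a step chosen after seeing the data. The lowest gene of the alpha cluster (Pcdha8) and the lowest of the gamma cluster with Pcdhgb8 set aside (Pcdhgc5), each the lowest of these in all 6 libraries, were kept as measures of the shared exons. The other members, without Pcdhgb8, were replaced by their reads above that gene. These reads above the lowest gene are called own-exon reads below. They leave out as many reads as the lowest gene has on its own exon. They are therefore a lower limit of a member's own reads, and their fold change is that of this excess. An exception is Pcdha6, whose gene model ends at 37188897, beyond that of Pcdha8 at 37187657. Its reads above Pcdha8 may include reads from that longer end. The shared exons are 2860 bases long in the alpha cluster, with 42.2% GC, and 2119 bases long in the gamma cluster, with 53.7% GC, against a median of 49.9% over the transcripts of all genes.

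The shared gamma exons, measured by Pcdhgc5 (gene 93708, chromosome 18, 37819546 to 37841873, plus strand), were lower in SETDB2-up. Pcdhgc5, a C-type isoform known to bind GABA-A receptors at synapses, had 3084, 3161 and 2829 normalised reads in NC-up against 2420, 2646 and 2511 in SETDB2-up. The groups did not overlap, and the means were 3025 ± 174 and 2525 ± 114 (SD, n = 3 each), which is a fold change of -0.26 ± 0.06 (log2, SE; limma adjusted p = 0.0083). The call was lost after the GC correction (-0.16, adjusted p = 0.128), with that correction made from the GC content of the shared exons (-0.18, adjusted p = 0.0805), without NC-up library 2 (-0.23, adjusted p = 0.0552), without SETDB2-up library 1 (-0.23, adjusted p = 0.0593), and with only SETDB2-up library 3, the one with the fewest liver transcripts, against the 3 NC-up libraries (-0.27, adjusted p = 0.0879). The fold change stayed below 0 for all 22 gamma members in each of 19 alternatives. After the GC correction 7 of the 22 gamma members fell, against 3.65% of all genes tested, and with the GC content of the shared exons 1 did, against 3.57%.

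Pcdhgb8 (gene 93705, 37761801 to 37840489), which the annotation lists as a transcribed pseudogene, was the gamma member with the largest fall as deposited. Its gene model ends before the last part of the shared exons, and its level was lower than that of the others, at 1064, 1090 and 996 normalised reads in NC-up against 711, 826 and 702 in SETDB2-up. The groups were well apart (-0.49 ± 0.08, limma adjusted p = 0.000482), and the call held in all 19 alternatives, among them the GC correction (-0.44, adjusted p = 0.00207). The reads that Pcdhgc5 has beyond those of Pcdhgb8 numbered 2020, 2072 and 1833 in NC-up against 1709, 1820 and 1809 in SETDB2-up. They were lower in SETDB2-up in all libraries too, by less, and did not pass the test (-0.15 ± 0.07, adjusted p = 0.131). The difference between both fold changes was not tested.

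No fall of the own-exon reads of the gamma members was detected at this threshold. None of 20 members passed at an adjusted p under 0.05 in either direction, against 8.54% and 7.62% of all genes in that fit. At an unadjusted p under 0.05, 1 member was lower and none higher by limma, against 15.6% and 14.9% of all genes, and edgeR on the recovered reads gave the same counts. Of the 20 fold changes 11 were above 0 and 9 below, with a median of 0.13. The own-exon reads of the gamma cluster summed to 3044, 2645 and 2610 in NC-up against 2630, 2764 and 2791 in SETDB2-up, so the groups overlapped (2766 ± 241 and 2728 ± 86.5, SD, n = 3 each). Beside these overlapping sums, the shared reads were 3025 and 2525; the difference between both changes was not tested. Single members have standard errors of 0.08 to 0.38 on the log2 scale. The smallest was that of Pcdhgc3, and the next was 0.147 (Pcdhga11). Pcdhga12, at -0.47 ± 0.16, missed the threshold. A change of the size seen in the shared exons (-0.26) would therefore also have missed it in every member but Pcdhgc3. For these members the lack of calls does not tell whether they fell with the shared exons.

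**Figure D2:**
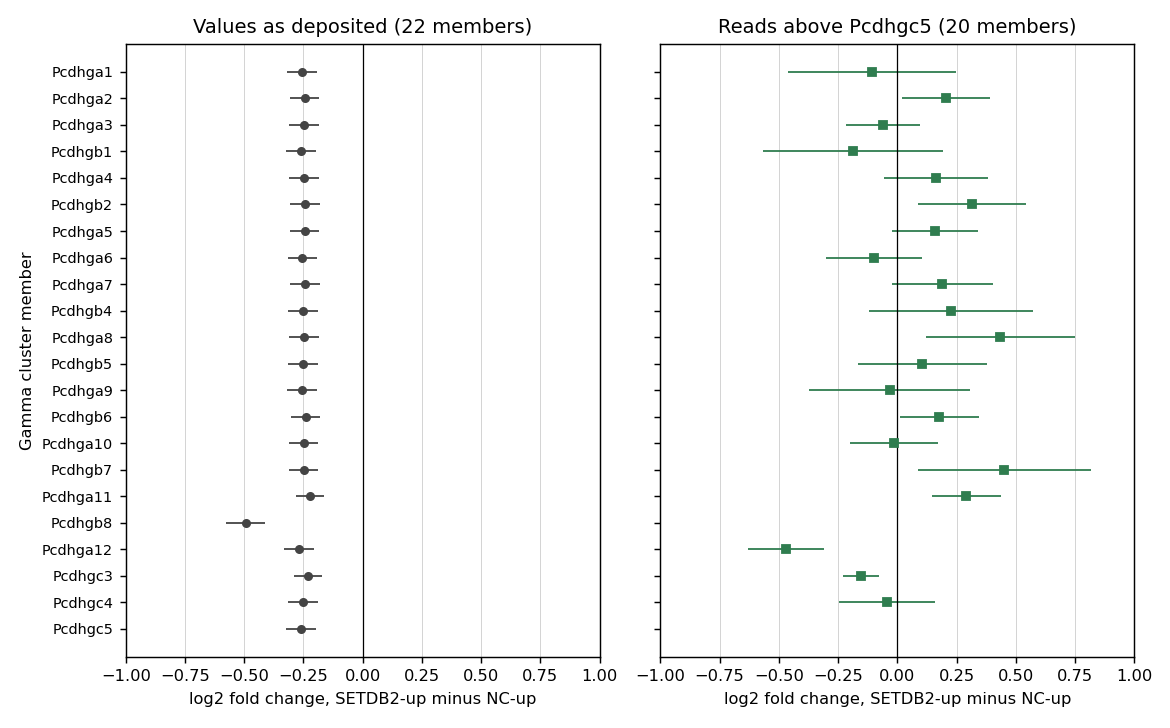
Log2 fold change (SETDB2-up minus NC-up, bars are SE) of the gamma members, from the values as deposited (left) and from the reads above Pcdhgc5 (right, 20 members; Pcdhgc5 is the reference and Pcdhgb8 was left out). On the left 21 of 22 members lie near -0.25; on the right they lie from -0.47 to 0.45 on both sides of 0, with wider errors.

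The member that came nearest to a call was Pcdhga12 (gene 93724, 37765580 to 37841873), the last A-type gene before the C-type genes. It had 190, 180 and 142 own-exon reads in NC-up against 133, 123 and 111 in SETDB2-up. All SETDB2-up values were lower, and the change missed the threshold narrowly (-0.47 ± 0.16, limma adjusted p = 0.0503). It passed with a pseudocount of 0.1 (adjusted p = 0.0494), with a replicate block (0.0315) and without NC-up library 3 (0.0266). Pcdhgc3, the C-type gene with the highest own-exon level of the cluster, is known from neurons and astrocytes. It had 1034, 1132 and 1051 own-exon reads in NC-up against 916, 927 and 1052 in SETDB2-up. The groups overlapped in that SETDB2-up library 3 lay within the NC-up range (-0.15 ± 0.08, adjusted p = 0.184). Pcdhgc4, the C-type gene best known for neuronal survival, had 118, 102 and 84.9 reads against 117, 108 and 74.1, without a difference beyond the spread (-0.04 ± 0.20, adjusted p = 0.911). Pcdhga11, the highest of the A- and B-type members, had 227, 150 and 184 reads against 236, 220 and 223 (0.29 ± 0.15, adjusted p = 0.188).

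Pcdhga1, Pcdhga6 and Pcdhgb1, which were among the 6 gamma members with the smallest p as deposited, were not lower beyond the spread by their own-exon reads. Pcdhga1 had 44.5, 29.7 and 26.8 reads against 31.3, 47.8 and 18.7 (-0.11 ± 0.35), Pcdhgb1 had 39.2, 39.3 and 17.9 against 17.1, 36.6 and 29.4 (-0.19 ± 0.38), and Pcdhga6 had 85.8, 88.1 and 130 against 97.9, 78.3 and 104 (-0.10 ± 0.20). In all 3 the groups overlapped. By type, the 12 A-type members summed to 1229 ± 168 own-exon reads in NC-up against 1256 ± 22.7 in SETDB2-up, and the 6 B-type members to 363 ± 93.9 and 408 ± 43.4. Pcdhgc3 and Pcdhgc4 together made up 37.4% to 46.7% of the gamma own-exon reads over the libraries, and Pcdhgc3 alone 33.5% to 42.8%. These shares are upper limits, since the same number of reads is left out for low and high members.

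No difference between the groups was found in the alpha cluster as deposited. None of 14 members passed the test in either direction, none had an unadjusted p under 0.05 (15.7% and 14.9% of all genes had one on the lower and the higher side), and edgeR gave the same counts of 0. The fold changes lay between -0.04 and 0.04, with standard errors of 0.06. The shared alpha exons, measured by Pcdha8 (gene 353235, 36992467 to 37187657), had 2515, 2587 and 2463 reads in NC-up against 2584, 2625 and 2439 in SETDB2-up, with full overlap (0.02 ± 0.06). Their sign depends on the GC correction: all 14 alpha members were below 0 after it (median -0.06). When the GC content of the shared exons was used, their median was -0.15, close to the -0.17 of the gamma members, all 14 were lower at an unadjusted p under 0.05, and Pcdhac2 passed the threshold as a fall (-0.20, adjusted p = 0.0420). The difference between the alpha and gamma clusters was not tested.

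Own-exon reads of the alpha cluster were dominated by the C-type genes at its end. Pcdhac2 (gene 353237, 37143678 to 37187663), the alpha isoform that serotonergic neurons are known to need for spacing their axons, had 2297, 2539 and 2259 own-exon reads in NC-up against 2144, 2275 and 2213 in SETDB2-up. The SETDB2-up values overlapped the lower end of the NC-up values, and the change was within the spread (-0.10 ± 0.06, adjusted p = 0.332). Pcdhac1 (gene 353236) had 596, 597 and 607 reads against 687, 600 and 707 (0.14 ± 0.09, adjusted p = 0.275). The C-type pair held 65.7% to 69.9% of the alpha own-exon reads in every library, and Pcdhac2 alone 49.8% to 55.5%. Own-exon reads leave out the same number of reads for every member, so these shares of high members are upper limits. The sum over the cluster was 4334 ± 245 in NC-up against 4310 ± 82.4 in SETDB2-up.

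Of the 13 alpha members with own-exon reads, Pcdha1 was the 1 that rose, which as a share of 13 is near the 7.62% of all genes that rose in that fit, and none fell (none was lower at an unadjusted p under 0.05 either, by limma or edgeR). Pcdha1 (gene 116731, 36930285 to 37187657), the first variable exon of the cluster, had 13.8, 29.7 and 20.6 own-exon reads in NC-up against 37.0, 45.8 and 69.6 in SETDB2-up. These are low values, equal to 13, 31 and 23 recovered reads against 39, 45 and 78, and every SETDB2-up value was above every NC-up value (1.23 ± 0.35, limma adjusted p = 0.0207). The call was lost without NC-up library 1 (0.96, adjusted p = 0.0565), without SETDB2-up library 2 (1.28, adjusted p = 0.0598) and without SETDB2-up library 3 (0.98, adjusted p = 0.0966). As deposited, where the shared reads dominate it, Pcdha1 changed by 0.03. In the annotation used its model holds 2436 of the 2860 shared bases of Pcdha8, whereas both gene models of the table end at the same base. The other 10 alternate members, Pcdha2 to Pcdha12 without Pcdha8, ranged from -0.10 to 0.25 in their fold change.

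**Figure D3:**
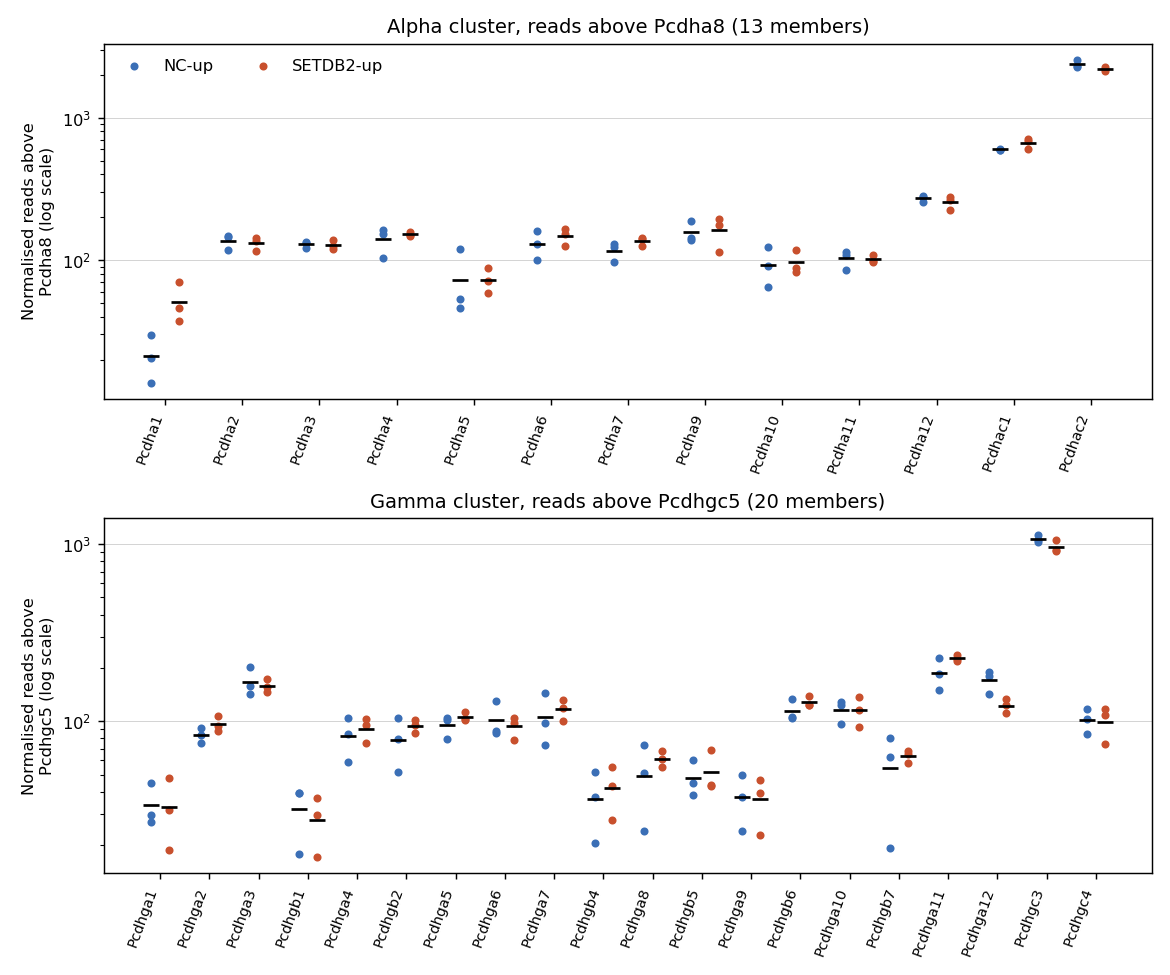
Own-exon reads (normalised reads above the lowest member, log axis) of 13 alpha and 20 gamma members; each point is 1 library, blue for NC-up and orange for SETDB2-up, and black bars are means of 3 libraries. Pcdhac2, Pcdhac1 and Pcdhgc3 stand above all others, and the groups are apart in Pcdha1 (SETDB2-up higher) and in Pcdhga12 (SETDB2-up lower).

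Beta genes have no shared exons, so each value is a measurement of its own. In their longest annotated transcripts 17 of 21 have no stretch of 150 bases in common with another member. Most lay slightly higher in SETDB2-up: 17 of 21 fold changes were above 0, against 50.0% of all genes, with a median of 0.21 against 0.00 over all genes. In 19 alternatives 14 to 17 were above 0, and the median was 0.11 after either GC correction. The change passed the test in 1 gene. The groups did not overlap in 6 of the 21, with 5 higher in SETDB2-up (16.8% of all genes were) and 1 lower. The cluster summed to 1644, 1842 and 1766 normalised reads in NC-up against to 1994, 1946 and 1890 in SETDB2-up. These sums, 1751 ± 99.7 and 1943 ± 52.1, did not overlap, and they were not put to a test. The longest annotated transcripts of the beta genes have a GC content of 39.1% to 49.0%, below the 53.7% of the shared gamma exons. Some are longer than the gene models of the table, such as that of Pcdhb14 (39.1%) with 8695 against 3438 bases.

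Pcdhb16 (gene 93887, 37477768 to 37483038, an exon of the plus strand), was the gene that passed. It had 55.1, 106 and 70.6 normalised reads in NC-up against 133, 147 and 102 in SETDB2-up. NC-up library 2 reached the level of SETDB2-up library 3, so the groups overlapped (0.75 ± 0.22, limma adjusted p = 0.0283; edgeR adjusted p = 0.0408). The call was lost in 7 of 19 alternatives. Among them were both GC corrections without a replicate block (0.60, limma adjusted p = 0.136 and 0.134, where 1.78% and 1.76% of all genes rose). It was also lost without NC-up library 1 (0.53, adjusted p = 0.0956) or NC-up library 3 (0.71, adjusted p = 0.0736). The same held without SETDB2-up library 1 (0.71, adjusted p = 0.135) or SETDB2-up library 2 (0.64, adjusted p = 0.135), and with SETDB2-up library 3 alone (0.44). With the GC correction and the replicate block together the call was kept (0.60, limma adjusted p = 0.0473).

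Pcdhb2, the first beta member in the table, had 18.0, 18.2 and 18.8 reads in NC-up against 31.3, 36.6 and 25.9 in SETDB2-up, without overlap (0.73 ± 0.34, adjusted p = 0.157). Pcdhb11 had 42.4, 44.1 and 48.3 against 54.1, 85.4 and 59.8 (0.53 ± 0.25, adjusted p = 0.150). These and Pcdhb16 were the 3 members higher at an unadjusted p under 0.05, a share of 21 near the 14.9% of all genes. Pcdhb4, Pcdhb7 and Pcdhb21 were also higher in every SETDB2-up library (0.32, 0.40 and 0.42), and Pcdhb12 was lower in every one, with 74.2, 89.1 and 86.7 against 66.5, 64.1 and 63.4 (-0.36 ± 0.20, adjusted p = 0.242). The beta genes with the highest values, Pcdhb17 and Pcdhb9, overlapped between the groups. Pcdhb17 had 214, 226 and 222 against 256, 219 and 260 (0.15 ± 0.12, adjusted p = 0.450), and Pcdhb9 had 235, 197 and 236 against 209, 203 and 192 (-0.14 ± 0.13, adjusted p = 0.494). In their longest annotated transcripts, 93.3% and 95.3% of the 150-base stretches of Pcdhb21 and Pcdhb22 are unique among the members. These transcripts, of 4705 and 6609 bases, are longer than the gene models of the table (2712 and 3067 bases). Whether reads of those gene models are shared with other members was not tested.

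Per length of own exon the levels of the members ranged from 802 normalised reads per kb in Pcdhac2 to 7.42 in Pcdhb6 (mean over 6 libraries, own-exon reads for alpha and gamma, all reads for beta). Pcdhac2 was followed by Pcdhgc3 (397), Pcdhac1 (260) and Pcdha12 (110), and these first 4 places were apart from each other and from the next in every library. From the fifth place, Pcdhga11 (79.6), to the last, each member overlapped the range of its neighbour in the order, so no finer order is given. The beta genes Pcdhb17 (71.2) and Pcdhb9 (69.4) overlapped in range with alpha and gamma members such as Pcdha9 (64.2) and Pcdhga3 (63.4). Own-exon reads are lower limits whereas beta values hold all reads, so beta genes may stand too high in this order. The 4 highest beta genes by reads held 38.3% to 45.4% of the beta sum. For comparison, the shared exons measured 853 to 918 reads per kb in alpha and 1142 to 1492 in gamma. Pcdha10 has no own exon of a known length in the annotation used and was left out here.

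**Figure D4:**
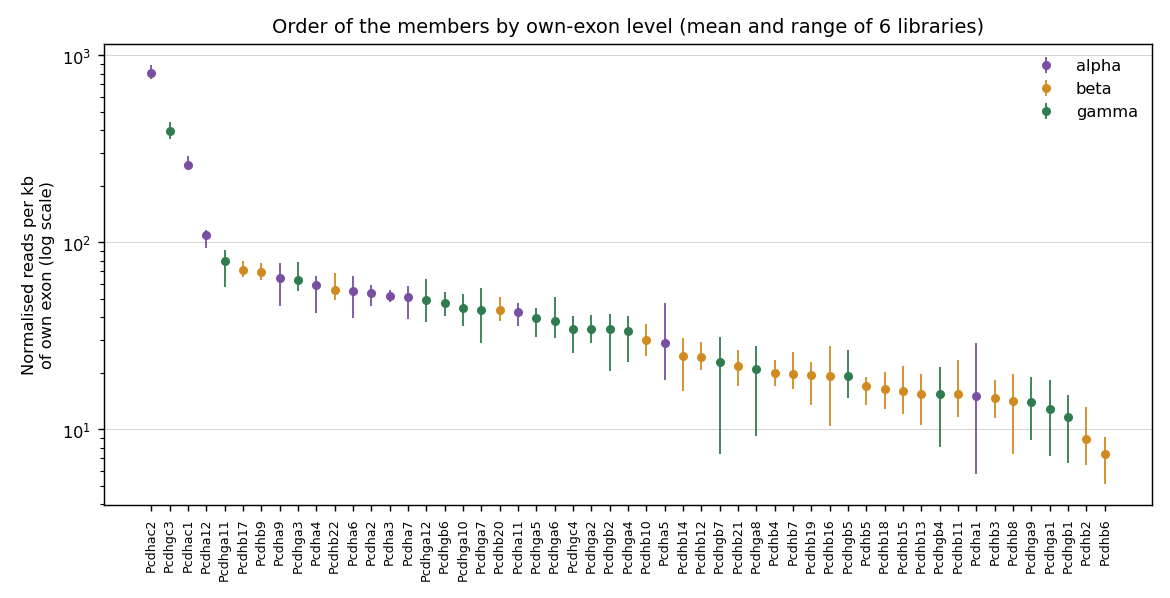
Normalised reads per kb of own exon (log axis, mean and range of the 6 libraries) for 53 members in descending order, coloured by cluster. Alpha and gamma values are own-exon reads, which are lower limits, and beta values are all reads. The first 4 members, Pcdhac2, Pcdhgc3, Pcdhac1 and Pcdha12, stand apart, and from Pcdhga11 on each range overlaps the next.

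The table also lists gene models that join the clusters. Gm37013, Gm38666 and Gm38667 are gene models that run from an alpha variable exon to the gamma constant exons. They fell by 0.25, 0.24 and 0.24 on the log2 scale, and each held 72 to 146 recovered reads more than Pcdhgc5 per library, so that they repeat the gamma measurement. Among 45 other genes within 1000000 bp of the clusters, 4 fell and 5 rose, against 8.71% and 7.71% of all genes. Taf7, a subunit of the general transcription factor TFIID that lies between the beta and gamma clusters, had 296, 278 and 317 reads in NC-up against 377, 411 and 342 in SETDB2-up (0.34 ± 0.11, adjusted p = 0.0391; adjusted p = 0.490 after the GC correction). Diaph1, an actin nucleator directly after the gamma cluster, had 765, 810 and 831 against 693, 810 and 737 (-0.11 ± 0.08, adjusted p = 0.411). Zmat2, the last listed gene before the alpha cluster, had 1468, 1399 and 1541 against 1460, 1367 and 1372 (-0.07 ± 0.07, limma adjusted p = 0.520). The others that passed were Cystm1 (-0.24), Apbb3 (-0.25), Rell2 (-0.21) and Dele1 (-0.33), which fell, and Igip (0.29), Hdac3 (0.20), Rnf14 (0.21) and Fgf1 (0.17), which rose. After the GC correction 2 of 38 neighbours with a known GC content fell, Cystm1 and Dele1, against 3.65% of all genes, and 0 rose, against 1.78% (7 were lower and 4 higher at an unadjusted p under 0.05). Taf7, Igip, Hdac3, Rnf14 and Fgf1 thus lost their calls, and Hdac3 also missed the threshold with edgeR (adjusted p = 0.0555).

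Of the genes that act on the clusters, 6 of 12 tested for CTCF and cohesin, which loop promoters to enhancers, rose, against 7.71% of all genes, and none fell; at an unadjusted p under 0.05, 7 were higher and 0 lower, and edgeR gave the same counts of 6 and 0. Stag2, a cohesin subunit, had 969, 936 and 981 reads in NC-up against 1373, 1315 and 1259 in SETDB2-up, without overlap (0.45 ± 0.07, adjusted p = 0.000294; 0.23, adjusted p = 0.0445 after the GC correction). Smc1a (0.29) and Pds5b (0.28), a subunit and a regulator of cohesin, also rose. After the GC correction 2 of the 12 did, Stag2 and Smc1a, against 1.78% of all genes. Of 22 genes for silencing of the clusters by DNA and histone methylation 3 rose and 3 fell, against 7.71% and 8.71% of all genes. After the GC correction 1 rose and 1 fell, against 1.78% and 3.65%. Smchd1, whose loss is known to raise clustered protocadherins, had 511, 618 and 567 reads against 802, 705 and 776 (0.43 ± 0.09, adjusted p = 0.00320; adjusted p = 0.103 after the GC correction). Trim28, the partner of KRAB zinc finger proteins, fell (-0.28, adjusted p = 0.00515; adjusted p = 0.604 after the correction).

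Of 25 cytoplasmic partners of the protocadherins 7 fell and 3 rose, against 8.71% and 7.71% of all genes, and after the GC correction 3 of them fell, against 3.65%. The same shares of all genes apply to the lists that follow, in which 1 gene of 9 or of 12 is near them. Marcks, an actin-linked substrate of protein kinase C that gamma protocadherins are known to act on in dendrite growth, had 3522, 3407 and 3031 reads in NC-up against 2066, 2170 and 1538 in SETDB2-up, without overlap (-0.80 ± 0.10, adjusted p = 2.56e-05; -0.92 after the GC correction). Nlgn2, a synaptic adhesion protein, fell (-0.28) and Pdcd10, a scaffold protein, rose (0.42), and neither passed after the GC correction (adjusted p = 0.814 and 0.247). Of 9 genes for the cleavage of protocadherins 1 fell, the presenilin gene Psen2 (-0.24; not after the GC correction, adjusted p = 0.329). Of 12 non-clustered protocadherins 1 rose, Pcdh9 (2406 ± 40.7 to 2935 ± 201, SD, n = 3 each). Its fold change was 0.28, and it did not pass after the GC correction (limma adjusted p = 0.194). Of 19 cadherin genes with Cdh symbols 4 rose and none fell (5 and 0 at an unadjusted p under 0.05, 4 and 0 by edgeR). Cdh19, known from Schwann cells and also on the list of glial markers, had the smallest p, with 876, 919 and 867 against 1463, 1478 and 1355 (0.69 ± 0.07, adjusted p = 4.17e-06; 0.46, adjusted p = 0.000435 after the correction). Cdh9 (0.86) and Cdh18 (0.29) rose as well, and 2 of the 19 rose after the correction, against 1.78% of all genes.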

How the data were processed

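The table holds a normalised signal: read counts that the authors divided by 1 factor per library, as the deposited values show (100% are whole multiples of 1 read, tolerance 0.001). Per the labels, poly(A)-selected, strand-specific libraries were sequenced as paired reads of 150 bases; the submitters' processing notes name FastQC, HISAT2 and GRCm38. The sources used here give neither the counter nor the annotation. Columns not mapped to a library numbered 0.

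Members were chosen by symbol, and their lists and alternatives with earlier results of these data known. Coordinates are the table's (GRCm38), equal to RefSeq's for 57 of 57 members. The main test was limma 3.58.1 (R 4.3.3) with a mean-variance trend on log2(value + 1) over the 16387 genes that reached 1 in 3 or more libraries; p-values were Benjamini-Hochberg adjusted over them, and under 0.05 counts as changed. Fold changes on this scale understate those of low genes. Named were members that rose, the 6 smallest p among falls, the 2 highest that did not pass and all C-type genes, in each cluster; of lists, up to 3 past the threshold (1 gene that this selects is not reported here); of neighbours, those past it and those flanking a cluster. Pcdha1, Pcdha8, Pcdhga11, the beta members without overlap and members placed by level were named after their values were seen. Alternatives were edgeR 4.0.16 and DESeq2 1.42.0 on recovered reads, limma-voom, other filters and a pseudocount of 0.1, a 1.5-fold minimum, the replicate block, each library left out, and a loess correction of each library for GC content of GENCODE M21 transcripts (15541 genes, 94.7%). Added after seeing the data were own-exon reads, both libraries with most liver transcripts left out, equal sums and GC content of shared exons. The limma, edgeR, DESeq2, limma-voom and replicate block fits were also run on simulated counts of independent genes at a fixed dispersion. That run did not cover the GC correction, own-exon reads or rows that share reads. A count of 3 reads equals 2.68 to 3.18 normalised reads, depending on the library. Reads carry no molecular identifiers.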

Additional observations from a re-analysis of the deposited data

How the results depend on the processing

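The fall of the gamma members as deposited kept its direction in 19 alternatives but not its count. Against 22 as analysed, 7 fell after the GC correction, 1 with the GC content of the shared exons, 1 with both libraries richest in liver transcripts left out (a single SETDB2-up library, assumed to vary like the others), 0 at a 1.5-fold minimum, and 1 when shared reads were counted once, where that 1 is the shared exons themselves. Leaving out each library in turn gave 2 (without SETDB2-up library 1) to 22, with 3 without NC-up library 2. For beta members that rose, 0 was found after both GC corrections and with both liver-rich libraries left out, and 0 to 1 without each library. For alpha members 1 fell with the GC content of the shared exons and 1 rose with shared reads counted once. Over all genes, 1427 fell and 1263 rose as analysed. These were 567 and 276 after the GC correction, 554 and 273 with that of the shared exons, 355 and 185 without both liver-rich libraries, 319 and 117 at a 1.5-fold minimum, and 676 to 1807 and 417 to 1526 without each library. For own-exon reads, gamma members that fell numbered 1 with a pseudocount of 0.1 and 1 with the replicate block, and 0 to 1 without each library, gamma members that rose 0 to 1, and alpha members that rose 0 to 1. The libraries share only their numbers: deviations of same-numbered libraries correlated at 0.032, 0.029 and 0.043, and each library correlated best with its own number. With the replicate block 22 gamma, 1 beta and 0 alpha members passed, and 1923 genes fell and 1695 rose. With the GC correction and the block together 21 gamma members fell, 1 beta member rose, 1035 genes fell and 783 rose. Depth limits the members with few own-exon reads, such as Pcdha1, and the deposited values cannot separate reads of the shared exons by promoter. The cause of these dependences was not tested.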
